A study of Mus musculus with 12 samples.

Results

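Terc, Rmrp, Rpph1, Rn7sk, Rny1 and Rny3 are 6 mouse genes of structured non-coding RNAs that work inside RNA-protein complexes. They were chosen by gene symbol, because Terc and Rmrp stood far higher with lycopene in earlier results of these Ribo-seq libraries. Of the 25033 entries of the Ribo-seq table, 3 carried one of these symbols (Terc, Rmrp and Rpph1), and Rn7sk, Rny1 and Rny3 were not analysed here. In Ribo-seq the liver lysate is first digested with RNase, ribosomes are then pelleted, and the RNA fragments they carry are sequenced. The libraries came from livers of male C57BL/6 mice aged 16 weeks after 8 weeks on a high-fat diet, given alone (HFD, n = 3 libraries) or with lycopene, the red carotenoid of tomatoes (LYC, n = 3 libraries). The HFD group was thus also on the high-fat diet, and the comparison addressed what lycopene changed on that diet. Under treatment the labels of the LYC samples give the high-fat diet alone, and lycopene was taken from the sample titles and the study's text. The labels also state that material of the groups was pooled before library construction, and the study's Ribo-seq methods mention pooling of digested samples. The study's text nevertheless calls the 3 libraries of each group biological replicates. If libraries of a group were not separate animals, the p-values measure only the spread between libraries.

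Telomerase extends chromosome ends by reverse transcription, and its RNA, Terc, carries the template that is copied into telomere repeats. Terc is transcribed by RNA polymerase II and ends in an H/ACA domain bound by dyskerin, Nhp2, Nop10 and Gar1. Rpph1 is the catalytic RNA of RNase P, which trims the 5′ ends of tRNA precursors, and Rmrp is the related RNA of RNase MRP, which takes part in ribosomal RNA maturation. Both are RNA polymerase III transcripts and share most of their protein subunits. 7SK RNA (Rn7sk) holds the kinase P-TEFb inactive, and Y RNAs (Rny1, Rny3) bind the Ro60 and La proteins. These RNAs are known for their work as RNAs, and reads on them are described here as reads on the RNA. Whether any of these reads came from translation was not tested.

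The sequences of the 3 listed RNAs show what the reads were counted on, and they were read from the mouse genome (GRCm38.p6, the assembly of the mm10 build) at RefSeq coordinates, as DNA letters from 5′ to 3′. Capitals in the first stretch of Terc mark the template, found as the longest run that fits repeats of CCCTAA in any phase. Capitals in its last 60 bases mark the ACA box. Capitals in Rmrp and Rpph1 mark the 2 longest stretches that the pair shares letter for letter, which are of equal length.
Terc (bases 1 to 300): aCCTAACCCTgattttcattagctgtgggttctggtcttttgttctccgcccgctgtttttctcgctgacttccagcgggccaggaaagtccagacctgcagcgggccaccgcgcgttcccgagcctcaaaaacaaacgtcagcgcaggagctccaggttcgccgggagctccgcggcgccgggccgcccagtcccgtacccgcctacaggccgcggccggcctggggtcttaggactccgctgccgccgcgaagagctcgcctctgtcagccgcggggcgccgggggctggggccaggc
Terc (bases 338 to 397): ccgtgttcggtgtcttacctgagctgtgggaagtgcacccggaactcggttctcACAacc
Rmrp: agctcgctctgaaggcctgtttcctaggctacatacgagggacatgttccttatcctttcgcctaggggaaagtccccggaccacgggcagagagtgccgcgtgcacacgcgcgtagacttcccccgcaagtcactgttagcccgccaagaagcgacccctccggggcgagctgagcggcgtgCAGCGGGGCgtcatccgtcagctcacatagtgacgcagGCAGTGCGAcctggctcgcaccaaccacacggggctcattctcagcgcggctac
Rpph1 (bases 1 to 300): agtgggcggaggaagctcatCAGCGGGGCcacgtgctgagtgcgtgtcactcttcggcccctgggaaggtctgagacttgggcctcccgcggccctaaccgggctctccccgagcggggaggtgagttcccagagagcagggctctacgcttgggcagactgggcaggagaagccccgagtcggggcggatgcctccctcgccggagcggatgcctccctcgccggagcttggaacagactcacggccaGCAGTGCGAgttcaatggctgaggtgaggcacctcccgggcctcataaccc

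Terc lies at chr3:96414437-96414833, Rmrp at chr4:43492785-43493059 and Rpph1 at chr14:50807447-50807771, all on the minus strand, and no other annotated gene overlaps them. The RNAs are 397, 275 and 325 bases long and hold 66.8%, 63.6% and 66.8% G or C. The template run of Terc spans bases 2 to 10, and the ACA box, which gives the H/ACA class its name, starts 6 bases from the 3′ end. The shared stretches are 9 bases long. The first spans bases 184 to 192 of Rmrp and bases 21 to 29 of Rpph1, and the second spans bases 222 to 230 of Rmrp and bases 250 to 258 of Rpph1. In a global alignment 58.5% of the aligned bases of Rmrp and Rpph1 were identical, beside 63.2% for Terc and Rmrp and 62.9% for Terc and Rpph1. A protein-coding gene lies close to 2 of them, Ccdc107 at 280 bases from Rmrp and Parp2, a DNA repair enzyme, at 125 bases from Rpph1. The HFD libraries were the deeper ones, as given below, so reads alone do not show a direction. Ccdc107 had a log2 difference of -0.64 (limma, adjusted p = 0.34) and was not called, and Parp2, with 0 to 3 reads per LYC library, was not tested.

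The authors deposited the Ribo-seq values as RPKM, reads scaled to gene length and to the library's total. The whole reads behind each value were recovered from the steps between RPKM values, and for the 3 RNAs every value came out whole at the lengths given above. The library totals were 2726202, 4405541 and 834410 reads in HFD replicates 1 to 3 and 394461, 311050 and 412116 reads in LYC replicates 1 to 3. For a gene 1 kb long, a single read came to 0.227 to 1.20 RPKM in HFD libraries but to 2.43 to 3.21 RPKM in LYC libraries. The hepatocyte list (albumin, transthyretin and other liver genes) had 8 of 8 genes tested, a median log2 difference of -0.04, beside -0.10 over all genes, and 1 gene called, Cps1, which was higher in LYC, as were 6.97% of all genes tested by the limits given below. Its summed level was 42283 to 44711 RPKM in HFD libraries and 29548 to 37985 RPKM in LYC libraries. Albumin made up that gap, since the other 7 genes summed to 15070 to 16906 RPKM and 15538 to 16168 RPKM. That sum holds opposite moves. Apoa1 and Cps1 had all LYC libraries above all HFD libraries in RPKM, and transthyretin (Ttr), Fgb and Hnf4a had all below, as had albumin. Sums of Kupffer cell (106 to 142 RPKM in HFD, 93.6 to 139 in LYC), endothelial, stellate cell, erythroid and proliferation markers overlapped between the groups. Single tested genes of these lists did not overlap, with Alas2 (erythroid) higher in LYC and Pecam1 (endothelial) and Csf1r (Kupffer cell) lower. Their log2 differences were 0.997, -1.01 and -0.43 (limma, adjusted p = 0.039, 0.070 and 0.39), and none was called. Over all tested genes, 10.0% had all LYC libraries above all HFD libraries in RPKM as deposited and 27.5% had all below. Cholangiocyte markers summed to 15.4 to 25.0 RPKM in HFD, above 2.89 to 9.25 RPKM in LYC, and lymphocyte markers to 4.00 to 6.41 RPKM, above 0.966 to 2.77 RPKM. None of the genes of these last lists had enough reads to be tested, and their part in the results was not tested. In whole liver, fewer cells of a type and less RNA per cell cannot be told apart.

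Terc had few reads in the HFD libraries and many more in the LYC libraries. Its level was 4.62, 4.00 and 6.04 RPKM in HFD replicates 1, 2 and 3, from 5, 7 and 2 reads. In LYC replicates 1, 2 and 3 it was 370, 462 and 691 RPKM, from 58, 57 and 113 reads. Every LYC library stood far above every HFD library, although the HFD libraries were sequenced more deeply. The mean RPKM was 4.89 ± 1.04 in HFD against 508 ± 165 in LYC (SD, n = 3 each), a ratio of 104. Over the pooled reads, 14 in HFD against 228 in LYC, the ratio of rates was 116, with an exact 95% interval of 67.8 to 216 that covers counting error only. The width of that interval comes from the few HFD reads.

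Rmrp was present in both groups and higher in LYC. It measured 458, 382 and 1033 RPKM in HFD replicates 1, 2 and 3, from 343, 463 and 237 reads. In LYC it measured 9495, 7646 and 8559 RPKM, from 1030, 654 and 970 reads. The groups did not overlap, and HFD replicate 3 stood above the other 2 HFD libraries, while the LYC libraries lay close together. The means were 624 ± 356 and 8567 ± 925 RPKM (SD, n = 3 each), a ratio of 13.7.

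Rpph1 followed with a smaller difference from a higher HFD level. Its HFD levels were 1071, 717 and 1036 RPKM from 949, 1026 and 281 reads, and its LYC levels were 4836, 9150 and 6884 RPKM from 620, 925 and 922 reads. The lowest LYC library was above the highest HFD library, and LYC replicate 2 was the highest of all. The means were 941 ± 195 and 6957 ± 2158 RPKM (SD, n = 3 each), a ratio of 7.39.

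**Figure D1:**
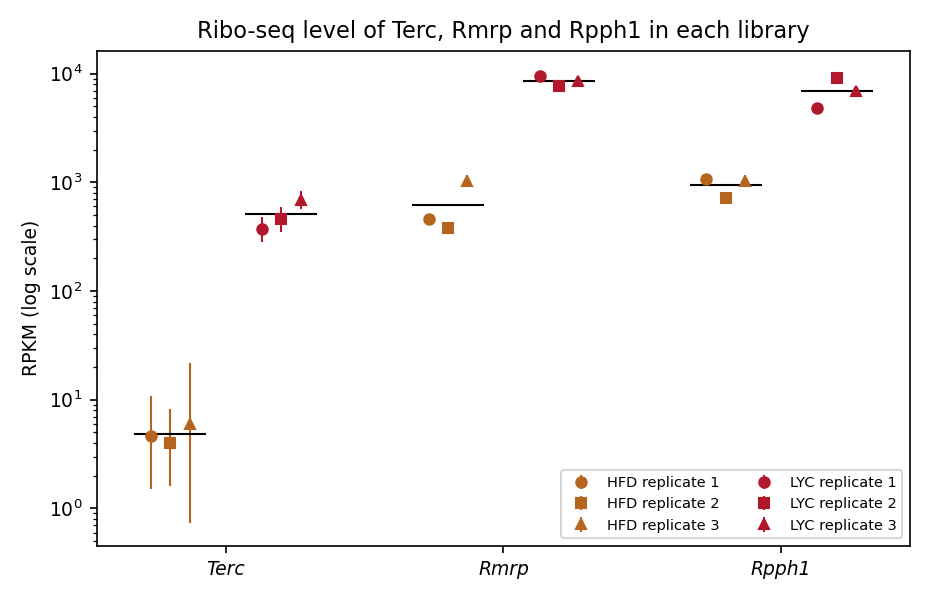
RPKM of Terc, Rmrp and Rpph1 in each of the 6 Ribo-seq libraries on a log axis, with HFD at the left and LYC at the right of each gene. Bars are exact 95% Poisson intervals of the reads (counting error only) and black lines are group means. Terc moves from 4.89 to 508 RPKM on average, and for all 3 genes every LYC library lies above every HFD library.

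On the scale used for tests, log2(RPKM / TMM factor + 1), where the TMM factor (trimmed mean of M-values) scales libraries to each other, the difference of LYC minus HFD was 6.65 for Terc (SE 0.31), 4.20 for Rmrp (SE 0.54) and 3.15 for Rpph1 (SE 0.33). Of 5695 genes with enough reads to be tested, these differences ranked 7, 31 and 51 from the top. The 3 RNAs passed that filter, Terc through its LYC libraries alone, as it had only 2 to 7 reads per HFD library. In RPKM as deposited, without TMM factors, the libraries of the 3 RNAs did not overlap. On that scale 10.0% of the tested genes had all LYC libraries above all HFD libraries and 27.5% had all of them below. As these RNAs were chosen on this very contrast, their values are a description with no test, and nothing is read from that count. Over 18 alternative settings the difference ranged from 5.86 to 7.16 for Terc, 3.19 to 4.66 for Rmrp and 2.23 to 3.30 for Rpph1. These ranges describe size, and nothing is read from their sign, given how the RNAs were chosen. The settings include a replicate block, which cannot move a difference in this balanced design, and a second table's counts, described below. After removal of the trend on gene length within each library the differences were 5.87 for Terc, 3.19 for Rmrp and 2.23 for Rpph1.

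Terc was below Rmrp and Rpph1 in every library, and the ratio of that pair varied between libraries. Rpph1 was above Rmrp in the 3 HFD libraries, where Rmrp came to 42.7%, 53.3% and 99.7% of Rpph1 in RPKM. In LYC the same ratio was 196%, 83.6% and 124%, with Rmrp the higher in replicates 1 and 3. The order in LYC replicate 2 depends on the table: with the counts of the second table, described below, Rmrp per base came to 240%, 101% and 153% of Rpph1 in LYC, so that replicate 2 had nearly equal levels. Terc was the lowest in all 6 libraries, at 0.585% to 1.05% of the Rmrp level in HFD against 3.90% to 8.07% in LYC.

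By RPKM rank, Rmrp was gene 156, 198 and 70 of the library in HFD and gene 24, 25 and 25 in LYC, among 12371 to 14669 genes above 0 in HFD against 9104 to 9971 in LYC. Rpph1 moved from ranks 82, 110 and 69 to ranks 39, 22 and 30. Terc moved from ranks 6224, 7250 and 5254 to ranks 235, 201 and 154. Rmrp thus took nearly the same place in every LYC library, whereas Terc passed from the middle of the genes above 0 to the upper end. Among the small RNA genes above 0, Terc reached ranks 82 to 101 of 200 to 233 in LYC, from ranks 227 to 295 of 228 to 335 in HFD.

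Many other small RNA genes, though not all, were higher in LYC as well. Of the other 126 small RNA genes tested (snoRNAs, miRNAs, snRNAs and the like), 94 had a difference above 0 and 67 (53.2%) were called higher in LYC, with 11 called lower. A call required an absolute log2 difference over 1 and an unadjusted p below 0.01 in limma's moderated test. Over all 5695 genes the same limits called 397 genes (6.97%) higher and 373 (6.55%) lower. That split of 397 against 373 depends on the scaling: it was 324 against 465 with TMM factors over all genes above 0, and 236 against 658 with RPKM as deposited. It also depends on single libraries, as 147 to 179 genes were called lower without any one HFD library and 697 without LYC replicate 3. The median difference was 1.78 over the small RNA genes, 2.71 over the 61 snoRNAs and 1.21 over the 60 miRNAs, beside -0.10 over all genes. Small RNA genes took 4.10%, 3.62% and 2.56% of the reads on genes in HFD against 13.3%, 8.66% and 12.8% in LYC. That share moved with the group as the 3 RNAs did, and its part in their difference was not tested.

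**Figure D2:**
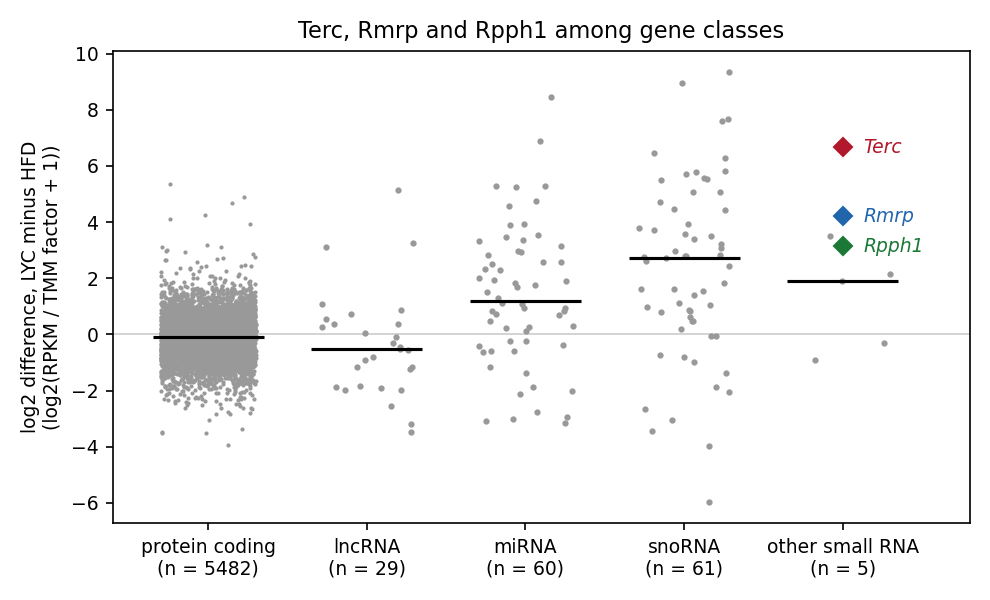
Log2 difference of LYC minus HFD for each tested gene by RefSeq class, with class medians as black lines, 1 grey point per gene, and Terc, Rmrp and Rpph1 as diamonds. The median is 2.71 for snoRNAs and -0.11 for protein-coding genes, and Terc at 6.65 lies near the top of the small RNA genes.

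The other small RNAs that the RefSeq biotype puts outside the snoRNA and miRNA classes, as it does the 3 RNAs, did not all rise. U3 (Rnu3a, the RNA that guides early ribosomal RNA cleavage) rose by 3.52, U7 (Rnu7, histone mRNA 3′ ends) by 2.15 and U11 (Rnu11, minor spliceosome) by 1.91 on the log2 scale. U12 (Rnu12) had a difference of -0.31 and U6 (Rnu6) of -0.90, and neither passed the limits. Length moved with the difference as well. Of 375 protein-coding genes under 1000 bases 18.4% were called higher, beside 4.93% of 5107 genes of 1000 bases or more. The part of gene length in the difference of the 3 RNAs was not tested beyond the setting with the length trend removed. Of the nuclear long non-coding RNAs in a list of 6, the 3 that could be tested were all called lower, beside 6.55% of all genes. In the whole lncRNA class, 29 genes were tested, of which 11 had a difference above 0, 3 were called higher and 9 lower. Malat1 fell by 2.00 on the log2 scale (156 ± 38.4 RPKM in HFD, 30.8 ± 1.92 in LYC, SD, n = 3 each; limma, adjusted p = 0.0047), Neat1 fell by 3.48 (adjusted p = 0.0025) and Kcnq1ot1 fell by 1.25 (adjusted p = 0.039).

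The genes with the pattern most like Terc were sought by the mean absolute difference of log2 values, each centred on the gene's own mean, over the 6 libraries. They were Snora44 (0.44), Snord2 (0.47) and Mir30a (0.49), a snoRNA of the H/ACA class, a snoRNA of the C/D class and a miRNA. Snora44 measured 34.5, 42.7 and 61.5 RPKM in HFD against 2037, 2418 and 1763 RPKM in LYC. For Rmrp they were Car9 (0.40), Mir148a (0.45) and Rnu3a (0.46). Car9, which encodes a carbonic anhydrase, is the protein-coding gene among them. It lies on the same chromosome, 13966 bases from Rmrp. It measured 81.3, 59.8 and 81.4 RPKM in HFD against 1246, 2046 and 1472 RPKM in LYC. Its groups did not overlap, and its log2 difference was 4.67. Rmrp itself was at 0.61 from Rpph1 and at 1.23 from Terc on this measure, so neither was among its nearest genes.

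A second table, labelled RNA-seq, gave read counts for the same 3 genes, but its libraries followed the Ribo-seq libraries closely. Each library of that table had its highest correlation with a single Ribo-seq library (Pearson r of log2 RPKM across 11017 genes from 0.932 to 0.961, a description over genes and not over independent samples). In LYC, 80.7% to 81.5% of genes with 5 to 200 counts had exactly equal reads in both tables, and in HFD 24.3% to 43.4% did. The HFD order was crossed, as replicates 1, 2 and 3 of the table labelled RNA-seq followed Ribo-seq replicates 2, 3 and 1. The table was therefore treated as a second count of the same libraries and not as a separate measurement of RNA. In LYC it nevertheless held more counts in total, 673832, 582184 and 687242 beside 394461, 311050 and 412116 Ribo-seq reads, and the cause was not tested. In HFD its totals were closer, 4730705, 805557 and 2976534 beside 4405541, 834410 and 2726202 in the crossed order. On its counts edgeR called 9.31% of 5921 genes higher and 7.33% lower, and gave fitted differences of 7.15 for Terc, 4.08 for Rmrp and 2.86 for Rpph1, which are no independent support.

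For Terc the 2 tables held identical reads, 7, 2 and 5 in HFD in that crossed order and 58, 57 and 113 in LYC. Rmrp had 477, 243 and 356 counts in HFD beside 463, 237 and 343 Ribo-seq reads, and 1032, 655 and 971 counts in LYC beside 1030, 654 and 970. Rpph1 differed more, with 1058, 292 and 953 counts in HFD beside 1026, 281 and 949 reads, but 509, 764 and 752 counts in LYC beside 620, 925 and 922. Terc was thus identical and Rmrp close in both tables, whereas Rpph1 was lower in the second table in each LYC library.

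**Figure D3:**
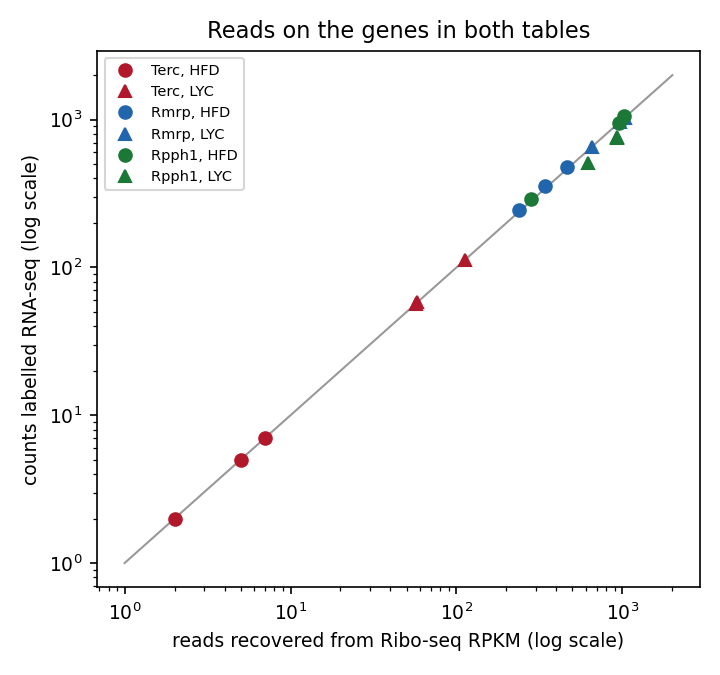
Counts of the table labelled RNA-seq against reads recovered from the Ribo-seq RPKM, both on log axes, for the 3 genes in the 6 matched library pairs, with the line of equal reads. Terc lies on the line in all 6 pairs, and the 3 Rpph1 points of LYC (509, 764 and 752 counts) lie below it.

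The genome holds copies with which Rpph1 could share reads. A search with blastn found 3 other places at over 80% of its length and identity, which are the annotated RNase P RNA-like genes Rprl1, Rprl2 and Rprl3. In the Ribo-seq table these 3 genes were listed at 0 in all 6 libraries. In the table labelled RNA-seq, Rprl2 had 0, 0 and 6 counts in HFD against 108, 153 and 165 in LYC. Rpph1 and Rprl1 to Rprl3 together came to 620, 926 and 923 counts in LYC, beside 620, 925 and 922 Ribo-seq reads on Rpph1 alone. In HFD the sums did not match, at 1066, 295 and 968 counts beside 1026, 281 and 949 reads, and Rpph1 alone was closer. The level of Rpph1 in LYC is uncertain by the counts that the second table holds on Rprl1 to Rprl3. For Terc there was 1 such unannotated place on the same chromosome, and Rmrp had none.

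The protein partners were read from 7 lists of 76 genes, of which 74 were listed and only 15 had enough reads to be tested. The test called 1 of them higher and 0 lower, beside 6.97% and 6.55% of all genes, and 2 of the 15 had an unadjusted p below 0.05 in limma, as had 30.3% of all genes. On the recovered reads, edgeR called 1 higher and 1 lower, beside 8.66% and 7.16% of all genes, and DESeq2 also called 1 higher and 1 lower, beside 8.99% and 6.88%. Without LYC replicate 3 limma called 4 of 29 partner genes tested higher (Nop10, Ssb, Polr3a and Gtf3c6) and 1 lower (Terf2ip), beside 8.00% and 9.68% of all genes tested in that setting. Without LYC replicate 1 it called 2 of 30 higher (Nop10 and Terf1) and 0 lower, beside 5.59% and 6.31%. The median difference of the 15 was -0.05, beside -0.10 over all genes. Most protein genes of these complexes were thus too low to be compared.

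Nop10, which encodes the smallest protein of the H/ACA core that binds Terc and the H/ACA snoRNAs, was the one called higher. It measured 28.3, 45.2 and 24.4 RPKM in HFD from 57, 147 and 15 reads, and 51.5, 113 and 65.8 RPKM in LYC from 15, 26 and 20 reads. Its groups did not overlap, and the log2 difference was 1.46 (SE 0.30; limma, adjusted p = 0.018). Nop10 passed the limits in every Ribo-seq setting run, but its adjusted p ranged from 0.0016 to 0.088 and was 0.057 with the length trend removed, where the difference was 1.06. At 738 bases it is one of the protein-coding genes under 1000 bases, of which 18.4% were called higher. The other telomerase genes did not reach the filter. Tert, the reverse transcriptase, had 1.16 ± 0.38 RPKM in HFD and 1.20 ± 1.04 RPKM in LYC (SD, n = 3 each), and in LYC this rested on 0, 2 and 3 reads. Dkc1, the gene of dyskerin, had 3.18 ± 0.87 and 3.96 ± 2.04 RPKM, with 7, 2 and 4 reads in LYC. In the libraries where Terc had 57 to 113 reads, Tert thus had at most 3.

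None of the 11 genes of RNase P and RNase MRP proteins passed the filter on reads. Pop1, the largest subunit and common to both enzymes, had 0.49 ± 0.27 RPKM in HFD and 1.51 ± 2.01 RPKM in LYC (SD, n = 3 each), with 1, 4 and 0 reads in LYC. Rpp30, another common subunit, had 2.59 ± 2.31 and 5.71 ± 4.95 RPKM, with 4, 3 and 0 reads in LYC. The list summed to 37.2 to 42.8 RPKM in HFD against 40.1 to 67.7 RPKM in LYC, less than the level of either RNA in any library. Rpp21, a subunit of RNase P, had 4.40, 2.72 and 4.79 RPKM in HFD against 10.1, 19.3 and 19.4 RPKM in LYC, from 2 to 6 reads per library. Its groups did not overlap, and without the filter it passed the limits as higher (1.90; limma, adjusted p = 0.035), as did 2.32% of all genes. Shelterin, the complex that protects telomeres, likewise had 7 genes listed and none that passed the filter.

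Of the partners of the RNAs without a row, Ssb (the La protein, which binds the 3′ ends of RNA polymerase III transcripts) had 14.6, 14.2 and 8.72 RPKM in HFD against 24.6, 45.2 and 7.06 RPKM in LYC. LYC replicate 3 was below every HFD library and the other 2 were above, and the difference of 0.95 did not pass (limma, adjusted p = 0.30). Without LYC replicate 3, Ssb passed the limits with a difference of 1.66. Ro60 had 1.13 ± 0.26 RPKM in HFD and 0.31 ± 0.28 RPKM in LYC (SD, n = 3 each), from 0 to 2 reads per LYC library, and was not tested. Its groups did not overlap, with every LYC library below every HFD library. In the 7SK group, Hexim1, which inhibits P-TEFb when bound to 7SK, had 12.1 ± 3.03 RPKM in HFD and 5.53 ± 2.84 RPKM in LYC (SD, n = 3 each), a difference of -0.83 that did not pass (limma, adjusted p = 0.21). In RPKM all LYC libraries of Hexim1 were below all HFD libraries, as were those of 27.5% of all tested genes. Larp7 and Mepce, which stabilise 7SK, had mean levels of 2.01 and 6.34 RPKM in HFD, 2.08 and 2.15 RPKM in LYC, and at most 4 reads in any LYC library, and they were not tested.

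The list of RNA polymerase III and its initiation factors, which serve several types of promoter, had 31 genes listed and 9 tested. The promoters of Rmrp and Rpph1 lie upstream of the transcribed sequence and use the complex SNAPc and Brf2 in place of TFIIIC, and the SNAPc genes and Brf2 had too few reads to be tested. limma called 0 of the 9, beside 6.97% higher and 6.55% lower over all genes. Of the 9, 1 (Pou2f1) had an unadjusted p below 0.05, beside that 30.3% of all genes, and 4 differences were above 0 and 5 below. That count depends on single LYC libraries, whose omission also changes which genes are tested: Polr3a (1.26) and Gtf3c6 (1.38) passed the limits as higher without LYC replicate 3, and Polr3c (-1.55) as lower without LYC replicate 2, where 6.65% of all genes were called lower. It also depends on the filter: without it Maf1, a repressor of RNA polymerase III, passed the limits as lower (limma, adjusted p = 0.022), as did 853 of 15749 genes (5.42%). Maf1 had 26, 45 and 10 reads in HFD and 0 in each LYC library. Over the pooled HFD reads, without TMM factors, Maf1 came to 5.97 RPKM. Taking 3 reads as the most that a count of 0 allows, the pooled LYC level was at most 1.58 RPKM. Their ratio is 3.79, which leaves out the counting error of the HFD reads and is no strict lower limit. The median difference of the 9 was -0.05, and their summed levels overlapped, at 61.6 to 87.2 RPKM in HFD against 59.0 to 63.9 RPKM in LYC. Over all 31 listed genes, most of them not tested, the sum was 129 to 183 RPKM in HFD against 91.9 to 125 RPKM in LYC. Polr3a, the largest subunit, had a difference of 0.78 and Gtf3c1, a subunit of TFIIIC, which serves the promoters of tRNA genes, of -0.31. Pou2f1, an activator that acts at upstream promoters of the SNAPc kind, had a difference of -0.89 that did not pass in limma (adjusted p = 0.070), but it passed the limits in edgeR with -2.19 (adjusted p = 0.026) and in limma with -1.01 on RPKM as deposited (adjusted p = 0.049). Of the 9 tested genes, Gtf3c1, Gtf3c2 and Pou2f1 had all LYC libraries below all HFD libraries in RPKM, as had 27.5% of all tested genes. The groups of the other tested genes of the list overlapped.

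**Figure D4:**
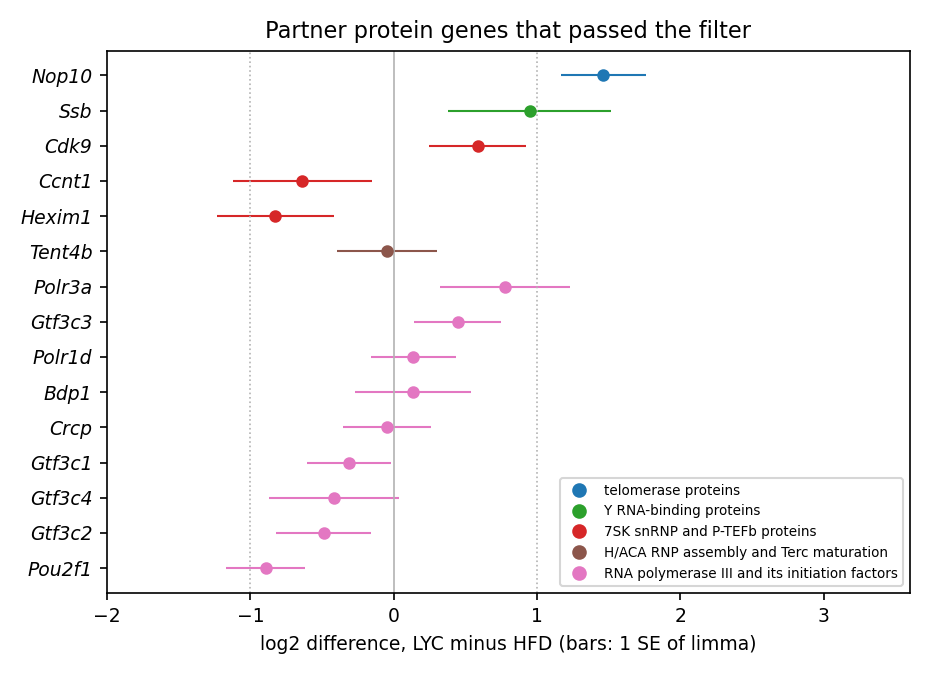
Log2 difference of LYC minus HFD with 1 SE for the 15 partner genes that passed the filter, coloured by list, with dotted lines at -1 and 1. Nop10 lies at 1.46, and the other genes lie between -0.89 and 0.95.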

How the data were processed

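Per the labels and the study's methods the authors used cutadapt, Bowtie2, STAR with mm10 and FANSE2 (versions not given in the sources used here) and deposited Ribo-seq RPKM. A second table by the authors, labelled RNA-seq, holds read counts beside RPKM. The 6 RNAs and all gene lists were chosen with earlier results of these data known.

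The Ribo-seq table has 25033 entries, 26 of them with dates in place of names. The 4 entries with a repeated name were dropped. Reads were recovered from RPKM steps (tolerance 0.005). At the second table's gene lengths, 11017 of 15749 genes above 0 had whole reads throughout. In single libraries 69.3% to 70.8% of values came out whole. For 4731 genes a length was fitted, namely the one whose read total was nearest the second table's, so their reads are less certain. The first fit took the length nearest the second table's and TMM factors over all genes above 0. Both were replaced after its calls had been seen to differ from earlier results of these data, so the reported setting was not chosen independently of the calls. With the first lengths 63 of 9108 genes with at least 50 counts had over 3 times the second table's reads, and 19 do now, which the new rule favours by its construction. TMM factors now rest on the genes that pass the filter. The earlier values are in the closing section.

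Genes passing edgeR's filterByExpr were fitted with limma 3.58.1 (mean-variance trend, two-sided) on log2(RPKM / TMM factor + 1), with TMM from edgeR 4.0.16, and Benjamini-Hochberg adjustment over all genes. The counts labelled RNA-seq went into edgeR's quasi-likelihood test. On simulated data for this comparison limma called 158 of 165 changed genes and 47 of 5759 unchanged genes. Genes named are the 6 RNAs, partners that were called or are core subunits, and the 3 nearest patterns of Terc and of Rmrp. Genes named beyond that (Parp2, Ccdc107, albumin, Cps1, Apoa1, Ttr, Fgb, Hnf4a, Alas2, Pecam1, Csf1r, Rprl1 to Rprl3, the snRNAs, nuclear RNAs, Polr3a, Polr3c, Gtf3c1, Gtf3c2, Gtf3c6, Pou2f1, Maf1, Rpp21, Terf1 and Terf2ip) were chosen after their values were seen. RefSeq coordinates of GRCm38.p6 were used, blastn 2.17.0 searched for copies, and no promoter was printed. Same-numbered libraries did not deviate together. Alternatives were other scalings, pseudocounts, filters, limits, DESeq2 1.42.0, edgeR, a replicate block, a length correction and leaving out each library.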

Additional observations from a re-analysis of the deposited data

How the results depend on the processing

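The 18 alternatives that gave a value for the RNAs ranged from 5.86 to 7.16 for Terc, 3.19 to 4.66 for Rmrp and 2.23 to 3.30 for Rpph1. Nothing is read from their sign, as the RNAs were chosen on this contrast. Differences outside 1 SD of the reported ones, all on the log2 scale, were 5.86 for Terc with pseudocount 5, 7.10 with edgeR, 7.16 with DESeq2, 7.15 with the counts labelled RNA-seq, and 5.87 (Terc), 3.19 (Rmrp) and 2.23 (Rpph1) with the length trend removed. Leaving out 1 library in turn gave 6.42 to 6.81 for Terc, 3.80 to 4.66 for Rmrp and 2.84 to 3.30 for Rpph1. With 1 library out, the Ribo-seq test called 272 to 576 genes higher and 147 to 697 lower. Without HFD replicate 1, 2 or 3 it called 177, 179 and 147 lower, and without LYC replicate 3 it called 697. The same omissions gave 1 to 4 partner genes called higher and 0 to 1 lower, among them the shelterin genes Terf1 (1.95 without LYC replicate 1) and Terf2ip (-1.75 without LYC replicate 3). For the counts labelled RNA-seq (551 higher and 434 lower of 5921), they gave 453 to 691 higher, 318 to 577 lower, 1 to 4 partner genes higher and 0 to 1 lower.

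RPKM as deposited gave 236 genes higher, 658 lower and 1 partner gene lower (Pou2f1), with a median over all genes of -0.36 in place of -0.10. Pseudocount 5 gave 222 lower. edgeR and DESeq2 each gave 1 partner gene lower, Pou2f1, beside 493 genes higher and 408 lower with edgeR and 512 and 392 with DESeq2. Without a filter 366 of 15749 genes were higher and 853 lower, and of 73 partner genes 2 were higher (Nop10 and Rpp21) and 1 lower (Maf1). At an unadjusted p below 0.001, 193 genes were higher and 108 lower. For the counts labelled RNA-seq, no filter gave 645 of 17022 genes higher and 988 lower, and of 73 partner genes 2 higher and 2 lower. Lengths nearest the second table's with TMM factors over all genes above 0, the choices of the first fit, gave 311 higher and 474 lower of 5759 genes. Those lengths alone gave 404 and 362, and those TMM factors alone 324 and 465 of 5695. The reported lengths and TMM factors, not these earlier ones, were chosen after seeing the calls, and the comparison with the earlier choices and with the second table was added then. The causes of these shifts were not tested.

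The replicate numbers did not pair the libraries, as same-numbered deviations correlated at 0.10, 0.03 and -0.01 across genes. With the replicate block 394 genes were higher and 355 lower. The differences were 6.65 for Terc, 4.20 for Rmrp and 3.15 for Rpph1, which a block cannot move in this balanced design. For the counts labelled RNA-seq the block gave 486 higher, 373 lower and 0 partner genes lower in place of 1. Depth limits the partner genes, since 59 of the 74 listed had too few reads for a test, and the Terc level in HFD, which rests on 14 reads.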
